A study of Mus musculus with 12 samples.

Results

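The Bcl2 family survival genes examined here were 10 genes of the deposited count table, taken by symbol: Bcl2, Bcl2l1, Mcl1, Bcl2a1a, Bcl2a1b, Bcl2a1d, Bcl2l11, Bax, Bak1 and Bid. The table held 55487 genes, and 14618 had enough counts to be tested; all 10 family members were among those. Bulk RNA-seq had been done on mouse Ly6C+ monocytes, phagocytes that circulate in blood, with 3 libraries in each of 4 groups. The BM libraries were wild-type bone marrow monocytes with no age given, the KO libraries were fetal liver monocytes of genotype KO at embryonic day E13.5, the Mixed libraries were wild-type fetal liver monocytes at E15.5, and the WT libraries were wild-type fetal liver monocytes at E13.5 (WT 1) or E15.5 (WT 2 and WT 3). The labels name neither the strain, nor the KO allele, nor what "Mixed" denotes. The transcription factors cMaf and Zeb2 appear in the title of the series, and a Z165KO line in its description. Zeb2 was at 22.2 ± 1.87 CPM in KO, CPM being read counts scaled to a common library size, against 149.7 ± 13.1 CPM in WT (SD, n = 3 each).

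Proteins of the Bcl2 family decide whether the outer membrane of the mitochondrion stays intact. The antiapoptotic members (Bcl-2, Bcl-xL, Mcl-1 and A1) hold the pore-forming members Bax and Bak in check, and the BH3-only proteins, among them Bim and Bid, are the sensors that bind the guardians or activate the pore formers; once the membrane is permeable, cytochrome c leaves it and caspases are activated. In myeloid cells Mcl-1 and A1 are short-lived proteins, and A1 is known as a gene of neutrophils and activated monocytes that responds to NF-kappaB. In the mouse A1 is encoded by several near-identical Bcl2a1 genes on chromosome 9.

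Total counts ran from 17384956 to 24473502 per library. Of 8 Ly6C+ monocyte marker genes, none was at 0 in any group, and their summed level was 28310 to 28800 CPM in BM, 11490 to 11630 CPM in Mixed, 8720 to 9800 CPM in WT and 7549 to 8474 CPM in KO. Differences below were tested with edgeR's quasi-likelihood test in 1 fit to all 12 libraries, with p adjusted over all 14618 genes by the Benjamini-Hochberg method, and a gene is called higher or lower where that adjusted p is under 0.05. The 6 comparisons share libraries, so they are not independent of each other. Whether libraries of the same group stem from different animals is not stated, so p-values describe a spread that may be technical.

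Between KO and WT, 6 of the 10 family genes were higher in KO, 1 was lower and 3 were not called. All 3 Bcl2a1 copies rose, as did Bcl2, Mcl1 and Bid, while Bax fell. The 3 copies share many reads, so in the tallies here and below they are not 3 separate results. Summed to 1 row they were also higher in KO (log2 1.24). The tallies and the family median were not redone on that sum. Among all genes tested, 18.2% were called higher in KO and 19.9% lower, and the median log2 fold change was 0.36 over the family against -0.03 over all genes. Between BM and WT, all 10 were called, 5 higher (Bcl2, Mcl1, Bcl2l11, Bax, Bid) and 5 lower (Bcl2l1, the 3 Bcl2a1 copies, Bak1) in BM, against a background of 32.1% higher and 31.9% lower. Between Mixed and WT none was called, against 4.21% of genes higher and 3.87% lower; 2 of the 10, Bcl2 and Bak1, had an unadjusted p under 0.05, and DESeq2 also called 0. In bulk RNA, a smaller share of cells that carry a transcript and less of it per cell cannot be told apart.

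**Figure D1:**
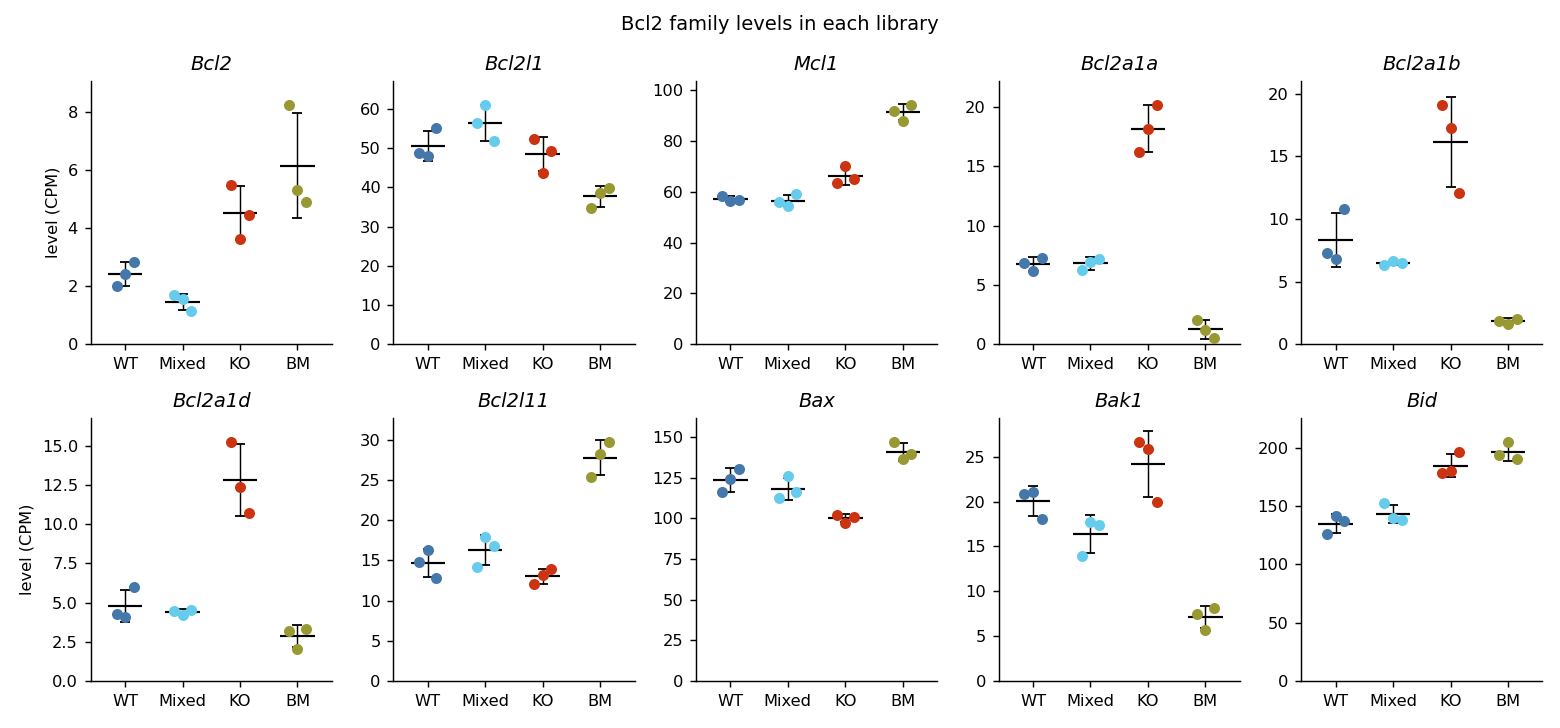
Level of each family gene in CPM (counts scaled to a common library size, linear axis from 0) in the 12 libraries, by group; points are libraries, horizontal bars are means and error bars are SD (n = 3). The KO points lie above all WT and Mixed points for the 3 Bcl2a1 copies, Bcl2, Mcl1 and Bid, and the BM points lie below all others for the Bcl2a1 copies, Bcl2l1 and Bak1.

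**Figure D2:**
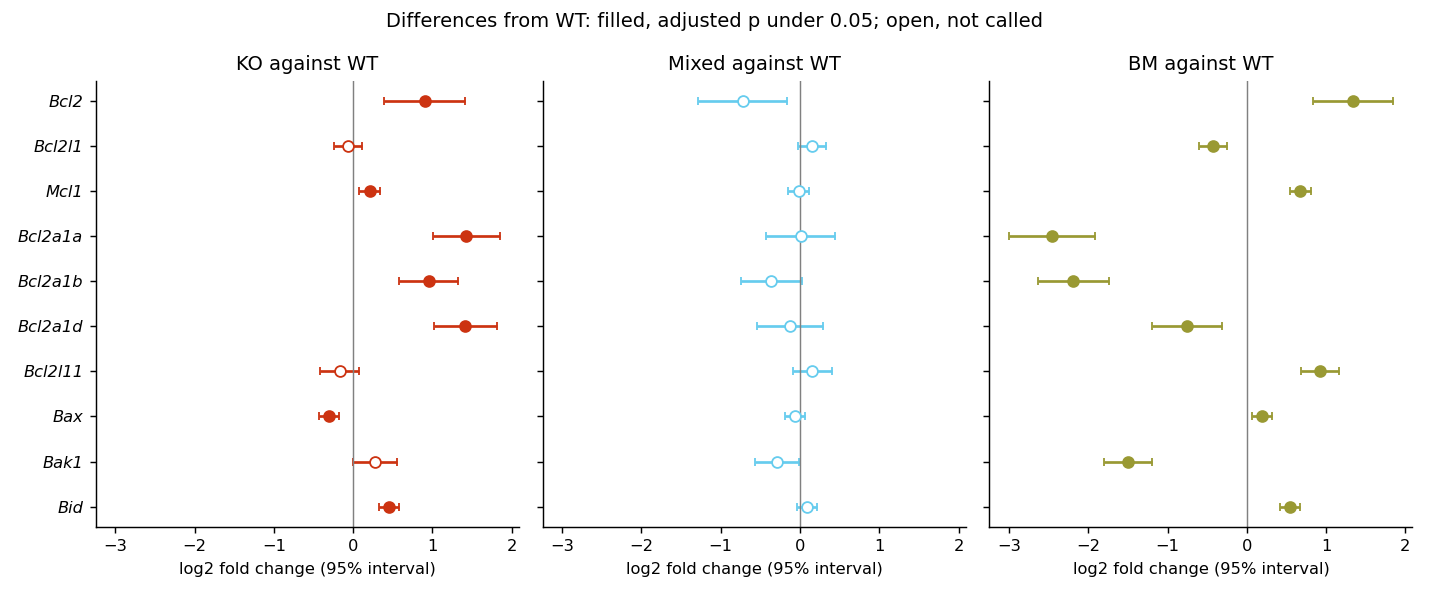
Log2 fold change of each family gene against WT in KO, Mixed and BM, with the 95% interval from the edgeR fit; filled points have an adjusted p under 0.05. In KO 7 genes were called, in Mixed 0 and in BM 10.

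The Bcl2a1 genes encode A1, and their copies differ so little that the start of the coding sequence is shown here to make plain what a read can and cannot distinguish. Bcl2a1a (ENSMUSG00000102037, plus strand, chr9:88956900-88962419), Bcl2a1b (ENSMUSG00000089929, plus strand, chr9:89199209-89207827) and Bcl2a1d (ENSMUSG00000099974, minus strand, chr9:88723285-88731914) each have a coding sequence of 519 bases in 2 exons, in the GENCODE M21 annotation of GRCm38, which is mm10. The first 60 coding bases lie at chr9:88957051-88957110, chr9:89199360-89199419 and chr9:88731660-88731719, respectively, and are written 5′ to 3′ on the strand of the gene, with the 6 positions at which the copies differ in capitals.
Bcl2a1a: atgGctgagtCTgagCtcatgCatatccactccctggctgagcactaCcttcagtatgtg
Bcl2a1b: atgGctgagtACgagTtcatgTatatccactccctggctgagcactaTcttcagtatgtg
Bcl2a1d: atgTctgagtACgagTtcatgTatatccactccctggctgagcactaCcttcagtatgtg
These 60 bases, chosen as the stretch within an exon that holds the most differences, carry 6 of the 12 coding positions that differ among the copies. Bcl2a1a and Bcl2a1b differed at 11 of 519 coding bases and 8 of 172 residues, Bcl2a1a and Bcl2a1d at 7 bases and 6 residues, and Bcl2a1b and Bcl2a1d at 6 bases and 4 residues. The longest coding run shared by Bcl2a1a and Bcl2a1d was 314 bases. Of all stretches of 50 bases in the Bcl2a1a transcript, 67.7% were also present in Bcl2a1d and 41.0% in Bcl2a1b, and of those in the Bcl2a1b transcript 57.6% were also present in Bcl2a1d, so many reads of that length fit more than 1 copy. The fourth gene of that name, Bcl2a1c (chr9:114330135-114330578, 1 exon), had a count of 0 in every library.

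The copies are alike in a stretch upstream too. That stretch of 40 bases ends 45 bases before the GENCODE start of Bcl2a1a and Bcl2a1b and at the base next to that of Bcl2a1d. It was the nearest one upstream of Bcl2a1a whose matches lie outside all 3 genes. Each match was the most similar ungapped 40 bases within the 250 bases upstream of that copy. The sequence (RefSeq promoter sequence, GRCm38.p6, chr9:88956816-88956855 plus strand for Bcl2a1a, chr9:89199125-89199164 plus strand for Bcl2a1b, chr9:88731915-88731954 minus strand for Bcl2a1d) was the same in the 3 copies. It reads as follows in 5′ to 3′ direction, all in lower case because no position differs.
Bcl2a1a, Bcl2a1b and Bcl2a1d: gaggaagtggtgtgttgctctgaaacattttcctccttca
The E-box CAGGTG, a sequence that Zeb2 is known to bind, was looked for on both strands in the RefSeq windows that run from 250 bases before to 50 bases after each gene's start. It was in 0 of the 13 windows of the 10 family genes, and in 20.2% of all 32851 windows of that length. That says only that these letters are not in these windows.

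The near identity of the copies shows in the counts. The deposited values are estimates in which reads are divided between transcripts, and counts were not whole (tolerance 1e-06) in 11 of 12 libraries for Bcl2a1a and in 12 of 12 for Bcl2a1b and for Bcl2a1d. They were whole in every library for Bcl2l1, Mcl1 and Bcl2l11, and not whole in 9 libraries for Bak1, 7 for Bax, 7 for Bid and 3 for Bcl2. The counts of the copies were therefore also summed to 1 row, called the A1 sum below, and fitted in their place.

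The A1 sum was highest in KO and lowest in BM. It was at 50.6, 47.7 and 43.0 CPM in the KO libraries and at 18.5, 17.1 and 24.1 CPM in WT 1, WT 2 and WT 3. In Mixed it was at 17.1, 17.9 and 18.2 CPM, and in BM at 7.03, 4.85 and 5.90 CPM. The KO libraries lay above every other library and the BM libraries below every other library, while Mixed and WT overlapped. Against WT the A1 sum was 2.37-fold higher in KO (log2 1.24, SE 0.120, edgeR adjusted p = 3.15e-08) and 3.37-fold lower in BM (log2 -1.75, adjusted p = 3.9e-10). KO and BM differed 7.98-fold (log2 BM against KO -3.00, adjusted p = 3.36e-14). Mixed and WT did not differ beyond their spread (log2 -0.17, 95% interval -0.42 to 0.09). WT 1, the only WT library of the same embryonic day as KO, was at 18.5 CPM, below every KO library. With the embryonic day as a covariate the difference between KO and WT was log2 1.37. That fit sets KO against WT 1 alone at the shared day, so both values rest on that library.

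Taken separately, each copy was called higher in KO than in WT and lower in BM than in WT. Bcl2a1a was at 16.2, 18.1 and 20.2 CPM in KO and at 6.86, 6.17 and 7.28 CPM in WT, a 2.68-fold difference (adjusted p = 1.2e-05). Bcl2a1b was at 19.1, 17.2 and 12.1 CPM in KO and at 7.31, 6.84 and 10.8 CPM in WT (log2 0.95, SE 0.178, adjusted p = 0.000184). Bcl2a1d was at 15.3, 12.4 and 10.7 CPM in KO and at 4.30, 4.11 and 5.97 CPM in WT (log2 1.42, SE 0.190, adjusted p = 3.39e-06). For each copy the groups did not overlap. In BM the estimated count of Bcl2a1a was 36.6, 25.7 and 10.2, while the summed count of the copies was 128.5, 103.8 and 119.0, so the copy moved much more between BM libraries (coefficient of variation 61.7% for Bcl2a1a CPM) than the sum did (18.5%). The fall of Bcl2a1a in BM was 5.49-fold and that of Bcl2a1d 1.69-fold, against 3.37-fold for the sum. Bcl2a1d made up 48.3 ± 7.43% of the summed copy counts in BM and 24.0 ± 0.746% in WT (SD, n = 3); how far the division of shared reads bears on this was not tested. Bcl2a1b overlaps the gene Gm29094 on the same strand, and Bcl2a1d lies within the antisense gene Gm10634; the effect of these overlaps on the counts was not tested.

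**Figure D3:**
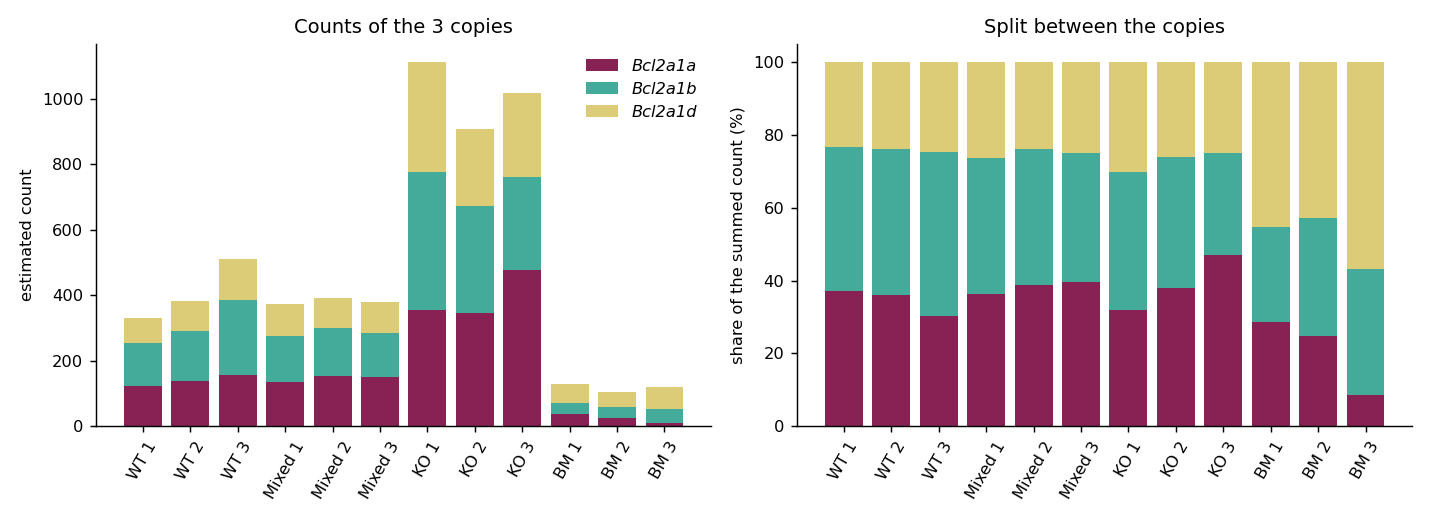
Deposited estimated counts of Bcl2a1a, Bcl2a1b and Bcl2a1d stacked per library (left, not scaled for depth) and the share of each copy in their sum (right, percent). The stacks of KO reach 908 to 1112 counts and those of BM 104 to 128, and Bcl2a1a takes 8.56 to 28.5% of the sum in BM.

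The summed level of a list of neutrophil markers was, like the A1 sum, highest in KO and lowest in BM, though not each gene showed that order. Of 11 neutrophil markers 6 were called higher in KO than in WT and the other 5 were not called, and in BM 2 were higher and 6 lower. Over all genes 18.2% were higher and 19.9% lower in KO, and 32.1% were higher and 31.9% lower in BM. S100a8 (5698 CPM in KO, 3057 CPM in WT) and S100a9 (4605 CPM in KO, 902.1 CPM in WT), which monocytes also transcribe, made up most of the sum in KO. The granule genes Ltf (230.1 CPM in KO, 333.6 CPM in WT), Camp (61.4 and 80.2 CPM) and Ngp (239.5 and 415.8 CPM) had lower means in KO and were not called. Mmp8 and Csf3r were called higher in BM, the group lowest in A1, and Retnlg had its highest mean there (33.8 CPM in BM, 13.8 CPM in WT, not called). The summed level of the 11 ranged over 10910 to 13670 CPM for KO, 4497 to 6348 CPM for WT, 3666 to 3974 CPM for Mixed and 984.6 to 1174 CPM for BM, and none of the 11 was at 0 in any group. WT 3, the WT library with the highest A1 sum, was also the WT library with the highest neutrophil sum. Without WT 3 the A1 difference between KO and WT was log2 1.40. The defining neutrophil surface gene Ly6g was at 11.2 CPM in KO, 0.831 CPM in WT, 0.327 CPM in Mixed and 0.832 CPM in BM. Markers of conventional dendritic cells were higher in KO as well, 6 of 6 called, against 18.2% of all genes. Their sum was 183.8 to 191.8 CPM in KO against 14.5 to 16.4 CPM in WT. The part of these other markers in the A1 difference was not tested.

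Bcl2, which encodes the founding antiapoptotic protein of the family (ENSMUSG00000057329, minus strand, chr1:106538178-106714274), had the lowest level per transcript length of the 10 genes in WT, at 0.589 ± 0.0686 TPM (transcripts scaled to a common total; SD, n = 3). It was at 5.50, 3.63 and 4.44 CPM in KO and at 8.24, 5.31 and 4.91 CPM in BM. In WT it was at 2.01, 2.41 and 2.82 CPM and in Mixed at 1.69, 1.55 and 1.16 CPM. All KO and BM libraries lay above all WT and Mixed libraries, with BM 1 the highest. Bcl2 was higher than in WT by log2 0.90 in KO (SE 0.245, adjusted p = 0.00551) and by log2 1.34 in BM (adjusted p = 5.35e-05). BM and KO were not called different (log2 0.44, 95% interval -0.04 to 0.91). An antisense gene, D630008O14Rik, lies within Bcl2, and reads of the pair cannot be told apart without strand. Gm37053 and Mir3473f lie within Bcl2 on the same strand, and the effect of these overlaps on the counts was not tested.

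Mcl1 encodes the short-lived guardian Mcl-1 (ENSMUSG00000038612, plus strand, chr3:95658788-95663176). It was at 91.7, 87.9 and 94.2 CPM in BM and 63.4, 70.1 and 65.0 CPM in KO. In WT it was at 58.5, 56.3 and 56.8 CPM, and in Mixed at 56.0, 54.6 and 59.1 CPM. The BM libraries stood above all others, and the KO libraries above all WT and Mixed libraries by a small margin. Mcl1 was 1.60-fold higher in BM than in WT (log2 0.68, adjusted p = 4.45e-09) and higher by log2 0.21 in KO (SE 0.0634, adjusted p = 0.0114). The call in KO was lost without KO 2 (adjusted p = 0.0717). It was also lost with the embryonic day as a covariate (log2 0.19), a fit that rests on WT 1 at the shared day.

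Bcl2l1 encodes Bcl-xL and, by alternative splicing, a death-promoting short form that gene counts do not separate (ENSMUSG00000007659, minus strand, chr2:152780668-152831728). Bcl2l1 was at 52.4, 43.7 and 49.3 CPM in KO and 48.8, 48.1 and 55.1 CPM in WT. In Mixed it was at 56.5, 61.0 and 51.8 CPM, and in BM at 34.6, 38.6 and 39.9 CPM. The BM libraries lay below all others and the fetal groups overlapped. For Bcl2l1, KO and WT were not called different (log2 -0.06, 95% interval -0.24 to 0.12). BM was lower than WT (log2 -0.42, adjusted p = 0.000199). The summed level of 6 erythroid (red cell) markers was 3.52 to 15.9 CPM in BM and 714.4 to 1356 CPM in WT. In Mixed that sum was 581.8 to 1168 CPM and in KO 451.4 to 1010 CPM. All 6 were called lower in BM than in WT, against 31.9% of all genes. The part of red cell RNA in the levels of Bcl2l1 and the other members was not tested.

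Bcl2l11 encodes Bim, a BH3-only protein known for removing myeloid and lymphoid cells when growth factor is withdrawn (ENSMUSG00000027381, plus strand, chr2:128126038-128162547). It was at 25.4, 28.2 and 29.8 CPM in BM and 12, 13.1 and 13.9 CPM in KO. In WT it was at 14.8, 16.3 and 12.8 CPM, and in Mixed at 14.2, 17.9 and 16.8 CPM. Every BM library was above every fetal library, and KO and WT overlapped. Bcl2l11 was 1.90-fold higher in BM than in WT (log2 0.93, adjusted p = 3.39e-07), and KO against WT was not called (log2 -0.17, 95% interval -0.42 to 0.08).

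Bid encodes the BH3-only protein that caspase-8 cleaves, which joins the death receptor route to the mitochondrion (ENSMUSG00000004446, minus strand, chr6:120891930-120916853). It was at 177.9, 179.9 and 196.3 CPM in KO and 125.6, 141.8 and 137.0 CPM in WT. In BM it was at 193.7, 205.2 and 190.7 CPM, and in Mixed at 152.2, 139.8 and 138.1 CPM. KO and BM overlapped and both stood above all WT and Mixed libraries. Bid was higher than in WT by log2 0.45 in KO (SE 0.0613, adjusted p = 3.75e-06) and by log2 0.54 in BM (adjusted p = 8.6e-08). BM and KO were not called different (log2 0.09, 95% interval -0.04 to 0.22). Its end overlaps that of Bcl2l13 on the opposite strand by 913 bases. Gm44260 on the same strand (2094 bases) and the pseudogene Gm17812 on the opposite strand (318 bases) lie within Bid. The effect of these overlaps on the counts was not tested.

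The pore formers Bax and Bak1 moved in opposite directions in BM. Bax (ENSMUSG00000003873, minus strand, chr7:45461697-45466898) was at 147.1, 136.3 and 139.5 CPM in BM and 115.9, 124.1 and 130.4 CPM in WT. In KO Bax was at 101.9, 97.2 and 100.7 CPM, below every other library, and in Mixed at 112.3, 125.8 and 116.2 CPM. Bax was lower in KO than in WT (log2 -0.31, SE 0.0609, adjusted p = 0.000374). Bax lost that call with the embryonic day as a covariate (log2 -0.20), a fit that rests on WT 1 at the shared day. Its rise in BM against WT was small (log2 0.19, adjusted p = 0.00887) and was lost without WT 1 (adjusted p = 0.0689) and without a filter on low counts (adjusted p = 0.0623). Bax overlaps the gene Gm45808 on the same strand by 915 bases, and the effect of this on the counts was not tested.

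Bak1 (ENSMUSG00000057789, minus strand, chr17:27019810-27029009) was at 7.48, 5.73 and 8.09 CPM in BM and 20.9, 21.1 and 18.1 CPM in WT. In KO it was at 26.7, 25.9 and 20.0 CPM, and in Mixed at 13.9, 17.8 and 17.4 CPM. BM lay below every fetal library, and KO overlapped WT through KO 3. Bak1 was 2.82-fold lower in BM than in WT (log2 -1.50, adjusted p = 8.19e-09). KO against WT was not called (log2 0.27, 95% interval -0.0025 to 0.55, adjusted p = 0.114), and was called without KO 3 (log2 0.39, adjusted p = 0.0283). Bak1 lies wholly within Ggnbp1, a gene on the opposite strand.

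The remaining comparisons set each group beside Mixed and BM beside KO. Against Mixed, 7 of the 10 genes were higher in KO and 3 lower (Bcl2l1, Bcl2l11, Bax), against 18.2% of all genes higher and 18.5% lower. The largest of these differences was that of Bcl2, at log2 1.62 (SE 0.257, adjusted p = 2.98e-05). All KO libraries were at E13.5 and all Mixed libraries at E15.5, so day and group cannot be told apart in this comparison. With the embryonic day as a covariate, the day effect comes only from WT 1 against WT 2 and WT 3. KO against Mixed was then log2 2.01 for Bcl2, 1.40 for Bcl2a1a, 1.59 for Bcl2a1b, 1.77 for Bcl2a1d and 0.53 for Bid. It was 0.48 for Bak1, 0.18 for Mcl1, -0.10 for Bax, -0.13 for Bcl2l1 and -0.35 for Bcl2l11. Fewer of the 10, and fewer of all genes, were called in that fit. Bcl2l1 was near the threshold (log2 -0.22, adjusted p = 0.0484), and its call was lost in 14 of 18 refits: with RLE scaling, with DESeq2, with no filter on low counts, in the fit of the 2 groups, with a replicate block (adjusted p = 0.0582), with the embryonic day, and without any of KO 2, KO 3, Mixed 1, Mixed 2, WT 1, WT 2, BM 2 or BM 3 (adjusted p from 0.0519 to 0.669 over the 14). That of Bcl2l11 (log2 -0.33, adjusted p = 0.0333) was lost in 7 of 18, with the embryonic day, with no filter, and without KO 1, KO 2, Mixed 2, Mixed 3 or BM 2 (adjusted p from 0.055 to 0.365). BM against Mixed gave 5 higher and 5 lower, against 29.5% and 28.9% of all genes, with Bcl2, Mcl1, Bcl2l11, Bax and Bid higher; the call of Bcl2a1d was lost without BM 2 (adjusted p = 0.0727). BM against KO gave 3 higher (Mcl1, Bcl2l11, Bax) and 5 lower (Bcl2l1, the Bcl2a1 copies, Bak1), against 31.8% and 32.0% of all genes. The widest gap there was that of Bcl2a1a, at log2 -3.88 (adjusted p = 4.72e-11).

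Levels between genes were compared per transcript length, in TPM as deposited. The antiapoptotic transcripts Mcl1, Bcl2l1, Bcl2, Bcl2l2 and the A1 sum together stood at 129.3 ± 7.49 TPM in KO, 92.9 ± 1.65 TPM in Mixed, 90.9 ± 6.31 TPM in WT and 79.5 ± 4.97 TPM in BM (SD, n = 3). A1 held 59.2 ± 1.60% of that sum in KO and 39.0 ± 4.07% in WT. In Mixed its share was 36.0 ± 1.45% and in BM 14.3 ± 2.32%. Mcl1 held 52.6 ± 1.51% in BM and 20.1 ± 1.77% in KO, against 26.8 ± 1.98% in WT. A1 was the most abundant of these transcripts in every KO and every WT library, though in WT 1 and WT 2 close to Bcl2l1 (36.97% against 34.01% in WT 1 and 36.24% against 34.00% in WT 2). In Mixed, A1 led in Mixed 3 and Bcl2l1 in Mixed 1 and Mixed 2, and Mcl1 led in every BM library. Bcl2 was at 0.346 to 2.02 TPM over the libraries. Among the pore formers Bax was far above Bak1, at 225.4 ± 9.07 TPM against 12.8 ± 1.45 TPM in WT, and among the BH3-only genes Bid was above Bcl2l11, at 86.2 ± 5.78 TPM against 4.96 ± 0.833 TPM in WT. TPM are shares of a library, so these sums are relative levels and no tests were run on them.

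**Figure D4:**
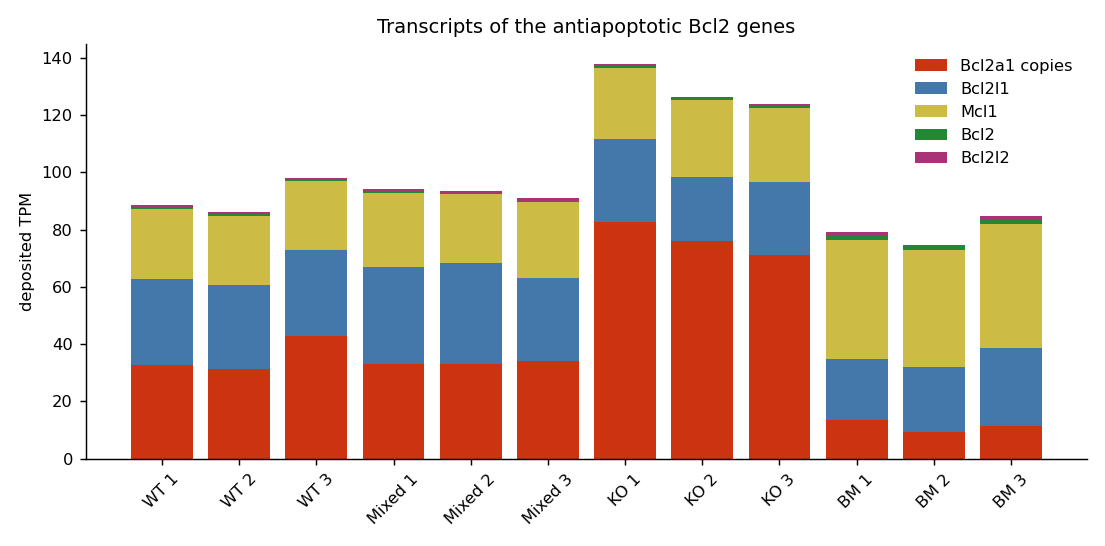
Deposited TPM of the antiapoptotic transcripts stacked per library (the Bcl2a1 copies summed). The stacks reach 123.8 to 137.9 TPM in KO and 74.7 to 84.6 TPM in BM, with A1 at 57.4 to 60.3% in KO and 12.5 to 16.9% in BM.

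Other genes of the family were read from a list of 16, of which 10 were tested; Bcl2l10, Bcl2a1c, Bok, Bik, Hrk and Bcl2l15 had at most 8 counts in any library. Of the 10, 3 were higher and 2 lower in KO than in WT (median log2 fold change -0.05), and 3 were higher and 4 lower in BM than in WT (median 0.07). The shares over all genes were 18.2% higher and 19.9% lower in KO and 32.1% higher and 31.9% lower in BM. Pmaip1, which encodes the BH3-only protein Noxa, a binder of Mcl-1 and A1, was at 123.0, 102.3 and 113.8 CPM in KO and 47.0, 46.9 and 47.0 CPM in WT (log2 1.27, SE 0.0906, adjusted p = 3.14e-10), and at 14.96 to 20.7 CPM in BM. Its KO libraries lay above all others and its BM libraries below all others, the order that the A1 sum showed. Bmf, another BH3-only gene, was at 15.9, 15.45 and 12.8 CPM in KO and 2.18, 2.19 and 4.09 CPM in WT (log2 2.37, adjusted p = 1.18e-08), and was also higher in BM (log2 1.60, adjusted p = 1.51e-06). Bcl2l14, a family member of less settled function, was at 19.4 ± 0.701 CPM in KO against 4.08 ± 0.495 CPM in WT (log2 2.25, adjusted p = 8.08e-10). Bcl2l13 was a little lower in KO (log2 -0.28, adjusted p = 0.00876), and Bnip3, a mitophagy receptor, was lower in BM (log2 -0.92, adjusted p = 2.34e-09).

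Downstream of the mitochondrion, 7 of 19 genes were higher and 3 lower in KO than in WT (median log2 fold change 0.10), against 18.2% and 19.9% of all genes (median -0.03). The effector caspase gene Casp6 was at 163.6, 171.0 and 169.9 CPM in KO and 58.3, 61.9 and 48.7 CPM in WT (log2 1.58, adjusted p = 2.83e-13), with BM at 53.6 to 58.7 CPM beside WT. Diablo, which encodes an antagonist of the inhibitor of apoptosis proteins, rose by log2 0.66 in KO (adjusted p = 3.76e-07) and Cycs, which encodes cytochrome c, by log2 0.49 (adjusted p = 1.89e-05). In BM 7 of the 19 were higher and 10 lower than in WT, against 32.1% and 31.9% of all genes. Naip5 (log2 1.203, adjusted p = 6.93e-11), Birc3 (log2 0.99, adjusted p = 6.42e-12) and Birc2 (log2 0.75, adjusted p = 2.11e-07), all of the inhibitor of apoptosis gene family, were higher in BM, and Vdac1, a channel of the outer mitochondrial membrane, was lower (log2 -1.33, adjusted p = 5.52e-15). In Mixed against WT 1 of the 19, Birc2, was higher and 1, Cycs, was lower, against 4.21% and 3.87% of all genes.

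Of 9 death receptor genes 1 was higher and 3 lower in KO than in WT (median log2 fold change 0.04), and 6 were higher in BM (median 0.21), where the other 3 were not called. Over all genes 18.2% were higher and 19.9% lower in KO, and 32.1% were higher in BM. Fas, the receptor of Fas ligand, was at 2.96, 2.00 and 2.66 CPM in KO and 7.70, 9.25 and 8.97 CPM in WT (log2 -1.76, adjusted p = 3.5e-08). In BM it was at 46.3, 41.9 and 39.5 CPM (log2 2.30 against WT, adjusted p = 4.69e-12), so that the KO, WT and BM libraries did not overlap. Ripk1 (log2 -0.39, adjusted p = 0.0204) and Fadd (log2 -0.32, adjusted p = 0.0334), an adaptor of Fas, were lower in KO, and Tradd, an adaptor of the TNF receptor, was higher (log2 0.25, adjusted p = 0.0115). Cflar, which encodes the caspase-8 inhibitor c-FLIP, was higher in BM (log2 0.53, adjusted p = 9.09e-06).

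Among 21 genes known to act on the family, of which 20 were tested, 7 were higher and 6 lower in KO than in WT (median log2 fold change 0.07), and 13 were higher and 3 lower in BM (median 0.64). The shares over all genes were 18.2% higher and 19.9% lower in KO (median -0.03), and 32.1% higher and 31.9% lower in BM (median 0.0031). Csf1r, the receptor of M-CSF, was at 353.3, 354.0 and 393.6 CPM in KO and 770.8, 793.9 and 844.9 CPM in WT (log2 -1.13, adjusted p = 5.29e-13). Csf3r, the receptor of G-CSF and also a neutrophil marker, was at 276.3, 286.1 and 287.9 CPM in KO and 141.5, 150.7 and 167.1 CPM in WT (log2 0.89, adjusted p = 7.41e-11). Ddit3, which encodes the stress factor CHOP, was higher in KO (log2 0.87, adjusted p = 0.000102) and Stat5a lower (log2 -0.45, adjusted p = 0.000367). In BM the NF-kappaB genes Relb (log2 1.69, adjusted p = 7.71e-06), Nfkb1 (log2 1.08, adjusted p = 6.96e-12) and Rel (log2 1.03, adjusted p = 1.14e-09) and the GM-CSF receptor gene Csf2ra (log2 1.58, adjusted p = 1.28e-07) were higher than in WT. In KO, Nfkb1 (log2 0.32, adjusted p = 0.000732) and Rela (log2 0.25, adjusted p = 0.0044) were also higher than in WT.

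For 3 members the genes most like them across the 12 libraries were sought among 8222 genes (8221 for Bcl2l11) by Pearson correlation of log2 CPM, as a description, since the points fall into 4 groups and share their libraries. Bcl2a1b was closest to Fpr2 (r = 0.992), Fpr1 (r = 0.987) and S100a9 (r = 0.985). Fpr1 was at 47.5 CPM in KO, 25.1 CPM in WT, 20.9 CPM in Mixed and 7.97 CPM in BM. Bcl2 was closest to Tnfrsf26 (r = 0.971), Ppm1k (r = 0.960) and Rsad2 (r = 0.957), which were each highest in BM, next in KO and lowest in Mixed. Bcl2l11 was closest to Ccr2 (r = 0.976), Mpg (r = 0.975) and Abca7 (r = 0.974); Ccr2, the chemokine receptor of classical monocytes, was at 2167 CPM in BM, 955.1 CPM in Mixed, 811 CPM in WT and 678.4 CPM in KO.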

How the data were processed

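The data were bulk RNA-seq of Ly6C+ monocytes, 12 libraries in 4 groups of 3 as the sample titles give them. The kit was SMARTer Ultra Low RNA, per the labels' protocols, and keeps no strand. The submitters' processing notes name Salmon, STAR, featureCounts, Subread and DRAGEN and build mm10, without roles. The authors deposited estimated counts per gene, 28.5% of the nonzero ones not whole, and TPM, used here for levels between genes.

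Of 55774 rows, 287 that repeated a gene were removed, and counts were rounded. Genes were kept by filterByExpr (minimum count 10, minimum total 15), leaving 14618. Libraries were scaled by TMM and tested with edgeR 4.0.16 (glmQLFit with robust = TRUE, glmQLFTest, R 4.3.3), two-sided. CPM are on TMM-scaled library sizes, SE is the absolute log2 fold change over the square root of F, and log2 CPM used a prior count of 2. The fit was tested on simulated data. Precision is set by 3 libraries a group. The 4 Bcl2a1 rows were also fitted as their sum.

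The family members, the gene lists and the tests were chosen with earlier results of these data known. Besides all 10 members, the rule named called genes of each list averaging at least 1 log2 CPM, up to 4 with the largest change against WT in KO and in BM and up to 2 elsewhere, and for Bcl2, Bcl2a1b and Bcl2l11 the 3 genes most like them among those averaging at least 3 log2 CPM. Some genes so named are not reported here. Marker genes, the sequence windows and the per-library values of list genes were chosen for print after their values were seen. A BH3 search in the proteins was not used here. Alternatives were RLE scaling, DESeq2 1.42.0, no filter on low counts, fits of 2 groups, a replicate block, the embryonic day as covariate over 9 fetal libraries, and each library left out.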

Additional observations from a re-analysis of the deposited data

How the results depend on the processing

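The results were refitted under 18 alternatives. The number of family genes called was 5 to 8 between KO and WT (7 as reported), 0 in every refit between Mixed and WT, 9 or 10 between BM and WT and between BM and Mixed (10 as reported), and 8 between BM and KO. Between KO and Mixed the reported 10 was reached in 2 of 18 refits, without BM 1 and without WT 3. It was 8 or 9 in the others (DESeq2 gave 7 higher and 2 lower) and fewer with the embryonic day as covariate. With that covariate calls over all genes fell as well. That fit sets KO against WT 1 alone at the shared day, and the cause was not tested. KO and Mixed share no embryonic day, so between them day and group cannot be told apart. The labels do not say whether the replicate numbers pair the samples. Libraries of the same number had correlations of deviations of -0.035 to 0.069, which cannot exclude a shared litter or day. A replicate block gave 9 calls between KO and Mixed, without Bcl2l1, and otherwise the reported counts of calls. The A1 sum, refitted under the same alternatives after the data were seen, kept its direction and call in each, from log2 1.142 to 1.403 for KO against WT.

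Signs changed in values that were not called. Bcl2l1 in KO against WT was 0.011 with the embryonic day as covariate and -0.122 to 0.003 with a library left out. In Mixed against WT, Mcl1 was 0.009 with the embryonic day, and with a library left out -0.05 to 0.008 for Mcl1, -0.057 to 0.066 for Bcl2a1a and -0.223 to 0.068 for Bcl2a1d; the summed copies gave -0.166 where Bcl2a1a alone gave 0.01. Calls of Bcl2l1 and Bcl2l11 between KO and Mixed were lost in 14 and 7 of 18 refits (adjusted p up to 0.669 and 0.365), and that of Bcl2a1d between BM and Mixed without BM 2 (adjusted p = 0.0727). RLE and DESeq2 kept the median log2 fold change of all genes within -0.023 to -0.001. Counts of Bcl2a1a in BM, down to 10.2, limit the precision of that copy.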
